A study of Mus musculus with 6 samples.

Results

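The genes described here encode the heterogeneous nuclear ribonucleoproteins (hnRNPs, named Hnrnp), the SR proteins (Srsf), the subunits of splicing factor 3a and 3b (SF3, named Sf3a and Sf3b) and the Sm and snRNP-specific proteins of the small nuclear ribonucleoproteins (snRNPs, named Snrp). They were taken by symbol from a mouse whole-genome array, on which 47 of 16535 named genes belonged to these families: 18 hnRNP, 10 SR protein, 8 SF3 and 11 snRNP genes. The restricted animals were male C57BL/6J mice kept on 50% food restriction (FR, CE-2 chow) for 2 weeks from 9 weeks of age, and the controls were male C57BL/6J mice of the same age on normal diet. Each diet had 8 animals, all anaesthetised before blood was drawn from the right ventricle of the heart, and whole-blood RNA was measured. RNA was pooled, so the spread between single animals was not measured: pool 1 held animals 1 to 8 of a diet, pool 2 animals 1 to 4 and pool 3 animals 5 to 8. Each pool had a pair of 2-colour arrays, on which its FR RNA met its control RNA with the dyes exchanged, giving 6 arrays.

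Introns are removed by the spliceosome, in which snRNPs recognise the splice sites and the branch point. Most spliceosomal snRNPs, though not U6, carry a ring of Sm proteins, and SF3a and SF3b belong to the U2 snRNP that holds the branch point. SR proteins mostly bind exons and favour their inclusion, whereas many hnRNPs bind introns or exons and favour skipping, so the balance of both families sets alternative splicing. In blood, white cells splice actively and the receptor Ptprc (CD45) is a textbook case of hnRNP-regulated exons, mature mouse red cells have no nucleus, and platelets carry some unspliced RNA.

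The promoters of the 3 members with the lowest ratios and of both members that were higher are shown, so that the motifs counted next can be seen in the sequence of the genes at either end of the range. Each stretch holds the 120 bases before the RefSeq transcription start on GRCm38.p6, 5′ to 3′ on the strand of the gene, and capitals mark matches on either strand to the motifs searched. The Hnrnpa3 stretch lies at chr2:75659139-75659258 (plus strand), that of Hnrnpab at chr11:51606882-51607001 (minus), that of Snrpg at chr6:86371420-86371539 (plus), that of Hnrnpul1 at chr7:25754760-25754879 (minus) and that of Snrpd2 at chr7:19149718-19149837 (plus).
Hnrnpa3: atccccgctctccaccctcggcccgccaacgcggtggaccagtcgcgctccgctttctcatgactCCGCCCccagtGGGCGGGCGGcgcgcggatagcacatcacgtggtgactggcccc
Hnrnpab: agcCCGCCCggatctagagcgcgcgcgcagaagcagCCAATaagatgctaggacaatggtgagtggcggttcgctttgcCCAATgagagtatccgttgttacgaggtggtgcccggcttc
Snrpg: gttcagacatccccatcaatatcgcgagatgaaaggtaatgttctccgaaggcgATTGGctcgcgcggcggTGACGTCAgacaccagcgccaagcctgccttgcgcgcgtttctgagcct
Hnrnpul1: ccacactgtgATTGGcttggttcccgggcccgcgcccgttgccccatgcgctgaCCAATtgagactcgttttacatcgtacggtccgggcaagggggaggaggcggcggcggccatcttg
Snrpd2: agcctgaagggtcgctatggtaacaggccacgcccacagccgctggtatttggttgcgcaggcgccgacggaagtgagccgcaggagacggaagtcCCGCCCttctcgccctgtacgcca

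In these stretches the Hnrnpa3 promoter held 3 GC boxes, a sequence bound by Sp1, of which 2 overlap. The Hnrnpab promoter held a GC box and a pair of CCAAT boxes, which NF-Y binds. The Snrpg promoter held a CCAAT box and a cyclic AMP response element (TGACGTCA). Of the members that were higher, the Hnrnpul1 promoter also held a pair of CCAAT boxes, and the Snrpd2 promoter held a GC box. Over 300 bases (250 before to 50 after the start), 42 of the 47 members had a promoter in the RefSeq table. The ETS motif CCGGAAG was present in 14 of the 42 members (33.3%), against 9.93% of all 27025 genes in the table. The GC box GGGCGG was present in 31 members (73.8%), against 38.2% of all genes, and CCAAT in 21 members (50%), against 41.1%. TATAAA occurred in 7 members (16.7%), against 15.7% of all genes, and TGACGTCA in 2 (4.76%), against 2.03%. All motifs were searched on both strands, none is contained in another, and a gene with several annotated starts was counted where any of them held the letters.

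The members' promoters were rich in CpG, with a median of 26 CpG dinucleotides and 60.4% G+C, against 7 and 52.7% over all genes, and no comparison matched on base composition was made. By family, ETS letters were found in 5 of 6 SF3, 4 of 9 snRNP, 3 of 10 SR protein and 2 of 17 hnRNP promoters, and CCAAT in 2 of 6 SF3, 3 of 9 snRNP, 4 of 10 SR protein and 12 of 17 hnRNP promoters. Differences between families were not tested. Among members that were lower in FR, 7 of 19 promoters held the ETS letters and 12 of 19 held CCAAT. Among tested members that were not lower, 5 of 14 held the ETS letters and 6 of 14 held CCAAT. These are counts of letters and not of bound sites.

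Across the arrays, FR RNA was well above background at 20.4% to 55.6% of spots and control RNA at 37.2% to 62.1%, and 0 spots were saturated. The log2 ratios of different arrays, all turned to FR over control, correlated at r = 0.703 to 0.939 over 11649 features. Markers of blood were present: the red-cell genes Hba-a1 and Alas2 were above background in both diets on all 4 arrays of pools 2 and 3, with log2 ratios of 0.02 and 0.09 that did not pass the test. White-cell and platelet markers were lower in FR: 8 of 8 leukocyte markers (median log2 ratio -1.61, range -2.93 to -0.82), 5 of 6 B cell markers (median -1.67), 5 of 7 T and NK cell markers (-1.19), 4 of 5 monocyte markers (-1.45), 3 of 6 neutrophil markers (-0.32) and 7 of 7 platelet markers (-1.17). Of 8 erythroid markers, 1 was lower and 2 were higher. Of 4 cardiac muscle and 3 hepatocyte markers that were above background, 0 were called in either direction.

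Of the 47 members, 35 were tested, namely 15 hnRNP, 6 SR protein, 5 SF3 and 9 snRNP genes. A gene was tested where its brightest probe was well above background for FR or for control on all 4 arrays of pools 2 and 3, which share no animal and were the 2 replicates. The test was limma's moderated test of the log2 ratio of FR over control against 0, with p adjusted over all 11649 features, and a gene was called at an adjusted p under 0.05. In FR blood 21 members were lower, 2 were higher and 12 did not pass, where 24.5% of all tested features were lower and 3.77% were higher. Among tested features with a gene name, 28.1% were lower and 3.24% higher. The median log2 ratio of the tested members was -0.54, against 0.006 over all tested features. Past 2-fold, 6 members were lower, namely Hnrnpa3, Hnrnpab, Hnrnpf, Hnrnpu, Sf3b6 and Snrpg, where 5.8% of all tested features were. Fewer cells of a type and less RNA per cell cannot be told apart in whole blood, and the white-cell and platelet markers moved the same way as these genes. Their part in the members' ratios was not tested.

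**Figure D1:**
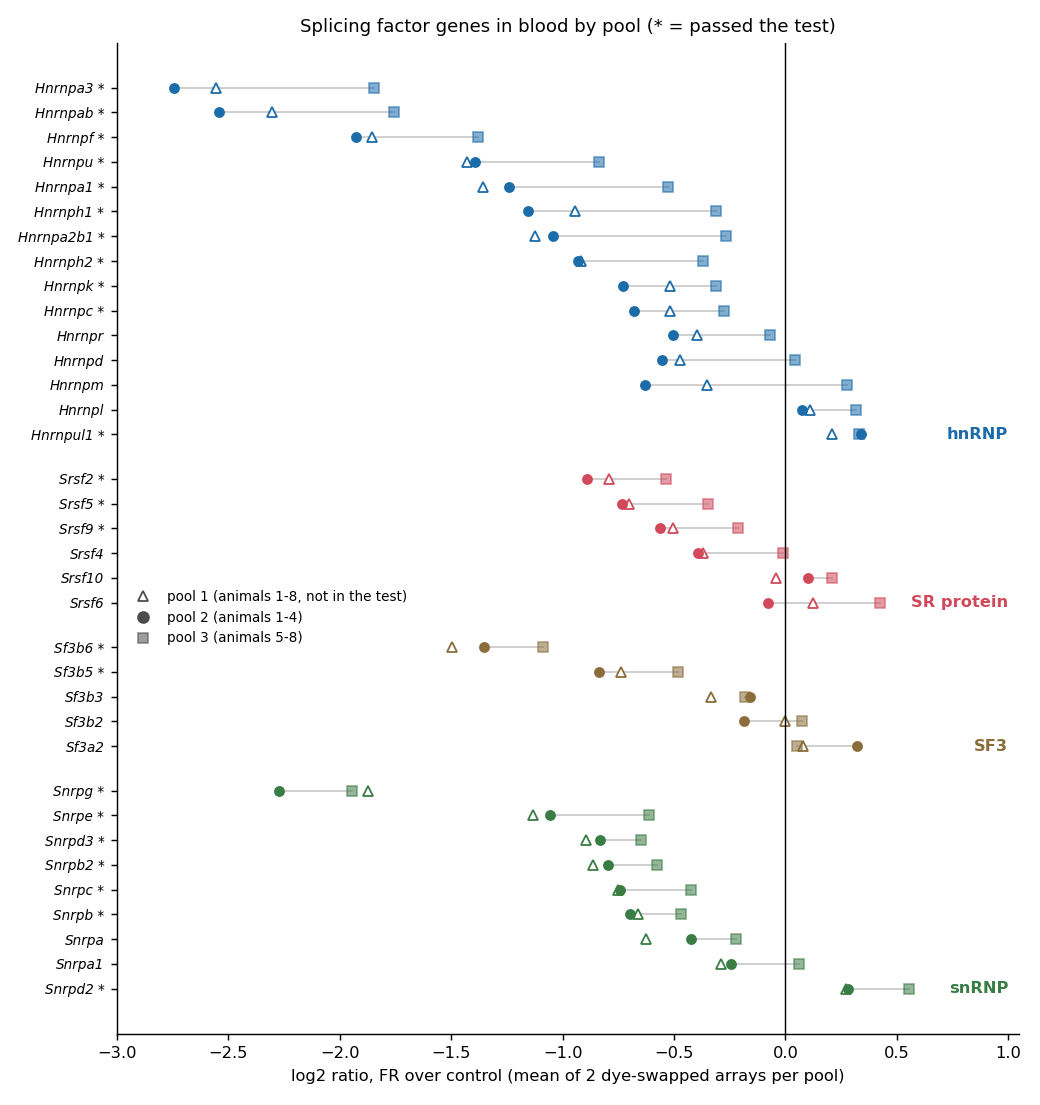
Log2 ratio of FR over control (x axis) for the 35 tested members, grouped by family and ordered by mean; filled circles are pool 2, filled squares pool 3 and open triangles pool 1, and asterisks mark genes that passed the test. The 21 lower members lie left of 0 in all 3 pools, with pool 2 further left than pool 3 in each.

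All 35 tested members were above background in control RNA on all 4 arrays, and 17 of them were in FR RNA too. The other 18 entered the test through control RNA alone, a filter that favours genes lower in FR. With FR and control both required to be above background on all 4 arrays, 10 of 17 members were lower and 1 was higher, where 18.5% of 7128 features were lower and 6.23% higher. With no such filter, 26 of 47 were lower and 2 higher, where 9.85% of 34334 features were lower and 1.63% higher. Of these features 11649 passed the filter of the main test, against 35 of the 47 members, so this contrast is not like for like. FR RNA was above background for all 35 on both arrays that carried it in Cy5, and for 11 of them on neither array that carried it in Cy3. Of the 21 lower members, FR RNA was above background on all 4 arrays for 10 and on 2 or 3 arrays for 11.

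The hnRNP genes as a family had a median log2 ratio of -0.65, with 10 of 15 lower, 1 higher and 4 that did not pass. Hnrnpa3, an hnRNP of the A/B type that binds RNA in the nucleus and in transport granules, had log2 signals of 7.13, 7.69 and 7.76 for FR RNA in pools 1, 2 and 3, against 9.69, 10.43 and 9.61 for control RNA. Every FR signal was below every control signal. Here and below, such a comparison over 3 pools holds only 2 independent values per diet. Pool 1 has RNA of the same animals as pools 2 and 3. How many of all tested features are separated in this way was not counted. The log2 ratio was -2.56 in pool 1, -2.74 in pool 2 and -1.85 in pool 3, and lay between -2.78 and -1.74 on the single arrays. Its mean over pools 2 and 3 was -2.295 ± 0.634 (SD, n = 2), or 4.91-fold lower in FR (adjusted p = 6.01e-50). This p, like the other very small ones here, rests on a common spread that limma estimated from all features, as a trend over mean signal. A single gene's own spread had no weight in it, since 2 pools give little information on that. For Hnrnpa3 the standard error of the mean used was 0.150, while its own 2 pools had an SD of 0.634. These are unlike measures, but on the same scale too the spread used was smaller than that of its own pools. An SD from 2 pools is itself imprecise. A stricter setting took the weight of that common spread from a fit of 3 pools (5.42 prior degrees of freedom in place of an unlimited number), and gave Hnrnpa3 an adjusted p of 0.00281. That fit counted pool 1 as a replicate although it holds RNA of the same animals, so the 5.42 does not come from independent pools.

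Hnrnpab, a relative of the A/B hnRNPs that also binds DNA at CArG boxes, had log2 signals of 7.23, 7.71 and 7.97 for FR RNA in pools 1, 2 and 3, against 9.53, 10.26 and 9.73 for control RNA. Its mean log2 ratio was -2.15 ± 0.56 (SD, n = 2; adjusted p = 4.37e-44). Hnrnpf, which binds G-rich stretches near splice sites and poly(A) sites, had log2 signals of 7.45, 7.95 and 7.81 for FR RNA, against 9.31, 9.87 and 9.19 for control RNA. Its mean log2 ratio was -1.65 ± 0.39 (SD, n = 2; adjusted p = 6.67e-26). For both genes all 3 FR signals lay below all 3 control signals. Another, dimmer Hnrnpf probe fell short of the filter and was not tested. It gave log2 ratios near 0, at 0.01, -0.09 and 0.15 in pools 1, 2 and 3. Hnrnpk, a KH-domain protein that binds C-rich RNA and is among the most abundant hnRNPs in many cells, had log2 signals of 10.07, 10.38 and 10.49 for FR RNA, against 10.59, 11.11 and 10.80 for control RNA. The diets did not overlap here either, and the difference was smaller, with a mean of -0.52 ± 0.30 (SD, n = 2; adjusted p = 0.00193).

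The other hnRNP genes that were lower had mean log2 ratios between -1.11 and -0.48. Hnrnpu, a large chromatin-associated hnRNP also known as scaffold attachment factor A, was the lowest of them at -1.43, -1.39 and -0.84 in pools 1, 2 and 3. It was followed by Hnrnpa1 (-0.88), the classical antagonist of SR proteins, by the G-run binding Hnrnph1 (-0.73) and Hnrnph2 (-0.65), by the Hnrnpa1 relative Hnrnpa2b1 (-0.66) and by Hnrnpc (-0.48), which binds U-rich tracts of nascent RNA. Hnrnpr, Hnrnpd, which binds AU-rich elements, and Hnrnpm, which binds GU-rich RNA, did not pass, with means of -0.29, -0.26 and -0.18. Pools 2 and 3 had opposite signs for Hnrnpd (-0.55 and 0.04) and Hnrnpm (-0.63 and 0.28).

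At the upper end of the family stood Hnrnpul1 and Hnrnpl. Hnrnpul1, a relative of Hnrnpu known for a role at DNA breaks, had log2 signals of 6.79, 6.94 and 7.01 for FR RNA in pools 1, 2 and 3, against 6.58, 6.60 and 6.68 for control RNA. All FR signals lay above all control signals, by small margins, and the mean log2 ratio of 0.33 ± 0.008 (SD, n = 2) passed (adjusted p = 0.0303). The call was lost, among other settings, under that stricter prior (adjusted p = 0.108), with median centring (0.16, adjusted p = 0.370), and with no background subtraction (0.23, adjusted p = 0.0670). Hnrnpl, which binds CA repeats and represses variable exons of Ptprc, had log2 ratios of 0.11, 0.08 and 0.32 in pools 1, 2 and 3 and did not pass (mean 0.20 ± 0.17, SD, n = 2; adjusted p = 0.369).

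**Figure D2:**
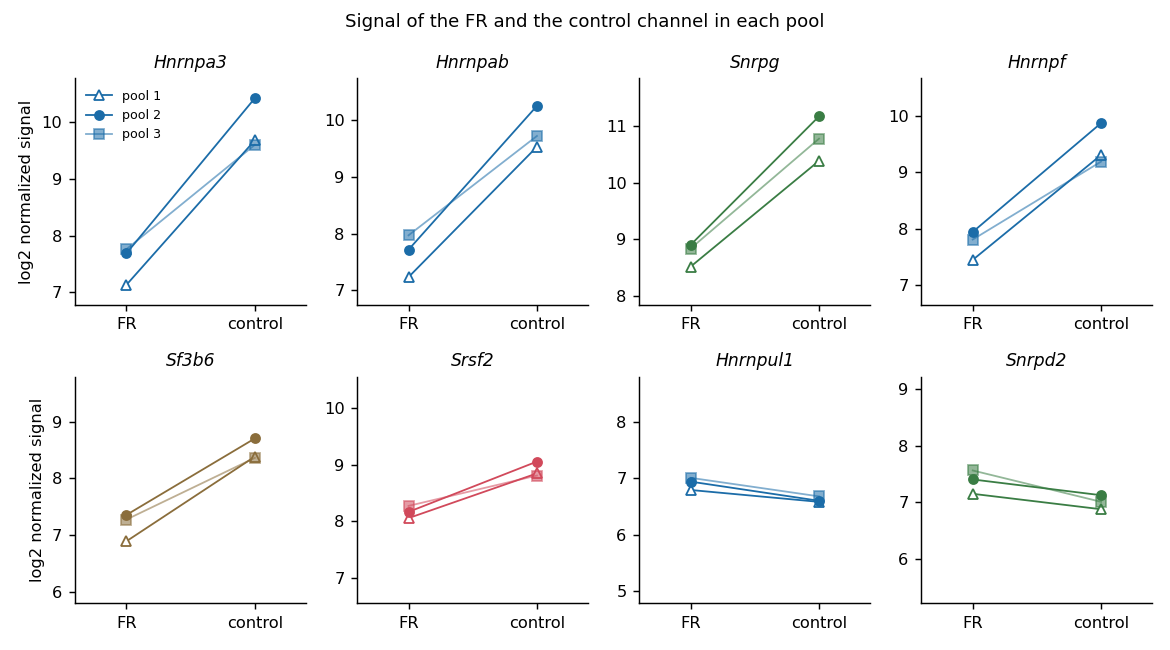
Log2 normalized signal (y axis, every panel spanning the same number of log2 units) of the FR and the control channel in pools 1, 2 and 3 for 8 members; lines join the 2 diets of a pool. FR lies below control in every pool for Hnrnpa3, Hnrnpab, Snrpg, Hnrnpf, Sf3b6 and Srsf2, and above it for Hnrnpul1 and Snrpd2.

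The SR protein genes had a median log2 ratio of -0.29, with 3 of 6 lower, 0 higher and 3 that did not pass. Srsf2, which binds exonic enhancers and is the classical marker protein of nuclear speckles, had log2 signals of 8.06, 8.17 and 8.27 for FR RNA in pools 1, 2 and 3, against 8.85, 9.06 and 8.81 for control RNA. All 3 FR signals lay below all 3 control signals, and the mean log2 ratio was -0.71 ± 0.25 (SD, n = 2; adjusted p = 2.08e-05). Srsf5, another enhancer-binding SR protein, had log2 ratios of -0.70, -0.73 and -0.35 in pools 1, 2 and 3 (mean -0.54 ± 0.27, SD, n = 2; adjusted p = 0.00170). Srsf9, a small SR protein, had log2 ratios of -0.51, -0.56 and -0.21 (mean -0.39 ± 0.25, SD, n = 2; adjusted p = 0.0180). Under the stricter prior Srsf2 kept its call and Srsf5 and Srsf9 did not (adjusted p = 0.0647 and 0.128).

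The remaining SR protein genes lay near 0. Srsf4 had a mean of -0.20. Srsf10, which turns into a splicing repressor when it is dephosphorylated after heat shock, had log2 ratios of -0.04, 0.10 and 0.21 in pools 1, 2 and 3 (mean 0.15 ± 0.08, SD, n = 2; adjusted p = 0.402). Srsf6 had log2 ratios of 0.12, -0.08 and 0.43 (mean 0.17 ± 0.36, SD, n = 2; adjusted p = 0.481), so its pools differed in sign.

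The SF3 genes had a median log2 ratio of -0.17, with 2 of 5 lower, 0 higher and 3 that did not pass, and both lower members encode small subunits of SF3b. Sf3b6, the small subunit that contacts the branch point adenosine, had log2 signals of 6.89, 7.36 and 7.27 for FR RNA in pools 1, 2 and 3, against 8.39, 8.71 and 8.37 for control RNA. The groups did not overlap, and the mean log2 ratio was -1.22 ± 0.19 (SD, n = 2; adjusted p = 2.36e-13). Sf3b5, a further small subunit of SF3b, had log2 ratios of -0.74, -0.84 and -0.48 (mean -0.66 ± 0.25, SD, n = 2; adjusted p = 4.84e-05).

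The other tested SF3 subunits did not pass. Sf3b3, a scaffold of SF3b built of beta propellers, had log2 ratios of -0.33, -0.16 and -0.18 in pools 1, 2 and 3 (mean -0.17 ± 0.02, SD, n = 2; adjusted p = 0.430). Sf3b2, an SF3b subunit that contacts pre-mRNA near the branch point, had log2 signals of 11.996, 11.205 and 11.764 for FR RNA, against 11.996, 11.392 and 11.688 for control RNA (mean log2 ratio -0.06 ± 0.19, SD, n = 2; adjusted p = 0.823). Sf3a2, a subunit of SF3a, had log2 ratios of 0.08, 0.32 and 0.05 (mean 0.19 ± 0.19, SD, n = 2; adjusted p = 0.411).

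The snRNP genes had a median log2 ratio of -0.58, with 6 of 9 lower, 1 higher and 2 that did not pass. Within the Sm ring, Snrpg had log2 signals of 8.51, 8.90 and 8.83 for FR RNA in pools 1, 2 and 3, against 10.38, 11.17 and 10.78 for control RNA. All FR signals lay below all control signals, and the mean log2 ratio was -2.11 ± 0.23 (SD, n = 2), or 4.31-fold lower in FR (adjusted p = 1.35e-44). Snrpe, its neighbour in the ring, had log2 ratios of -1.13, -1.06 and -0.61 in pools 1, 2 and 3 (mean -0.84 ± 0.32, SD, n = 2; adjusted p = 4.18e-08). Snrpd3 had log2 ratios of -0.90, -0.83 and -0.65 (mean -0.74 ± 0.13, SD, n = 2; adjusted p = 4.49e-07), and Snrpb, also an Sm protein, had a mean of -0.58.

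Snrpd2 went the other way within the same ring. Its log2 signals were 7.15, 7.41 and 7.57 for FR RNA in pools 1, 2 and 3, against 6.88, 7.13 and 7.01 for control RNA. All FR signals lay above all control signals, and the mean log2 ratio of 0.42 ± 0.20 (SD, n = 2) passed (adjusted p = 0.0217). The call was lost, among other settings, under the stricter prior (adjusted p = 0.115), with median centring (0.19, adjusted p = 0.354) and when only arrays carrying FR RNA in Cy5 were used (0.26, adjusted p = 0.163).

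Among the proteins specific to U1 or U2, Snrpb2 of U2 (-0.69) and Snrpc of U1 (-0.58) were lower. Snrpa of U1, which binds a stem-loop of U1 RNA, had a mean of -0.32 and did not pass (adjusted p = 0.0957). Snrpa1 of U2 had log2 ratios of -0.29, -0.25 and 0.06 in pools 1, 2 and 3 and did not pass (mean -0.09 ± 0.22, SD, n = 2; adjusted p = 0.626).

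Set side by side, the hnRNP and snRNP families had the lower medians (-0.65 and -0.58) and the SR protein and SF3 families the higher ones (-0.29 and -0.17). The differences between families were not tested, and their ranges overlapped: -2.295 to 0.33 for hnRNP, -0.71 to 0.17 for SR protein, -1.22 to 0.19 for SF3 and -2.11 to 0.42 for snRNP genes. These sizes differed between ways of processing the signals, and which step moved them was not tested. With Agilent's processed signals, median-centred, the medians were -1.62 for hnRNP, -0.76 for SR protein, -0.38 for SF3 and -1.85 for snRNP genes, where the median of all tested features was -0.03. In that setting 21 members were lower and 2 higher, where 26.7% of features were lower and 3.43% higher, but not all were the same genes: Hnrnpc did not pass (adjusted p = 0.0645) and Hnrnpr was lower (adjusted p = 0.00170). Hnrnpr was lower in 7 of the 14 alternatives run on it.

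**Figure D3:**
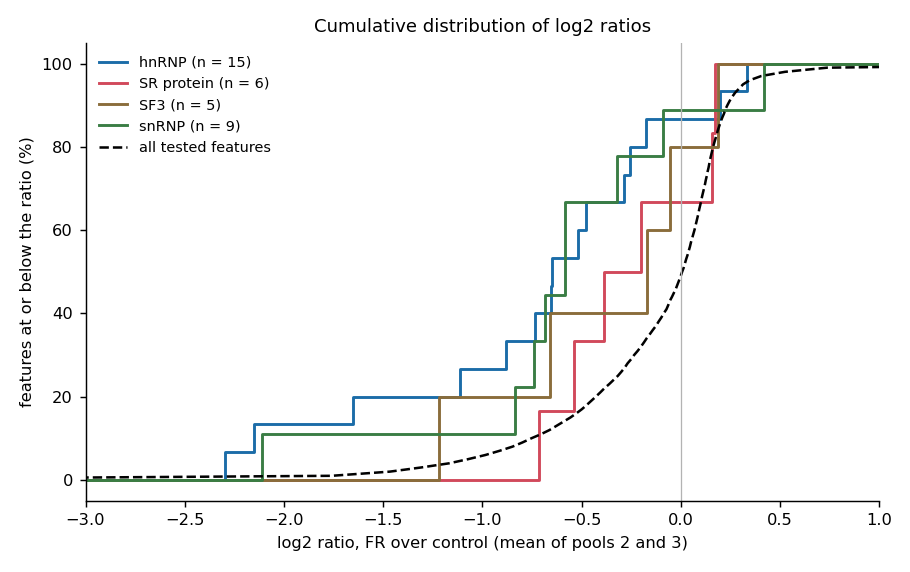
Share of features in percent (y axis) with a mean log2 ratio of FR over control at or below the value on the x axis, for the 4 families (solid lines) and for all tested features (dashed line). At 50% the hnRNP and snRNP lines lie furthest left, with medians of -0.65 and -0.58, and the dashed line lies near 0. The order of the lines differs at other heights.

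The 2 replicate pools differed in the size of the ratios. All 21 lower members were below 0 in all 3 pools and on all 6 arrays. They were called from the mean of pools 2 and 3, which favours the same sign in both. These signs are thus no separate evidence, and how many of all lower features share them was not counted. Pool 2 had the lower ratio in 32 of 35 tested members (91.4%), against 54% of all tested features. The members' median was -0.73 in pool 2 and -0.31 in pool 3, where the medians over all tested features were 0.01 and -0.03. For hnRNP genes the pool medians were -0.93 and -0.31, for SR protein genes -0.48 and -0.11, for SF3 genes -0.19 and -0.18, and for snRNP genes -0.74 and -0.47. Several marker lists also had a lower median in pool 2 than in pool 3: leukocyte (-1.98 and -1.25), B cell (-1.92 and -1.41), T and NK cell (-1.29 and -1.10), monocyte (-1.49 and -1.41), neutrophil (-0.59 and -0.12) and erythroid markers (-0.19 and 0.22). The platelet (-1.20 and -1.24), cardiac muscle (0.16 and 0.07) and hepatocyte markers (0.24 and 0.01) did not. Pool 1, which holds RNA of the same animals and is a repeat measurement on another slide, had a median of -0.66 over the members, with 30 of 35 below 0.

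How firmly the calls stand differed between members. Under the stricter prior, 15 members were lower (6 hnRNP, 1 SR protein, 2 SF3 and 6 snRNP genes) and 0 higher, where 15.5% of all features were lower and 1.55% higher. Without the replicate block, which sets FR and control of a pool against each other, 8 were lower (4 hnRNP, 0 SR protein, 1 SF3 and 3 snRNP genes) and 0 higher, where 8.6% of all features were lower and 1.02% higher. The same 8 were called lower under every alternative that gave them a value: Hnrnpa3, Hnrnpab, Hnrnpf, Hnrnpu, Sf3b6, Snrpd3, Snrpe and Snrpg. How many of all tested features were lower under every alternative was not counted. The alternatives share animals and arrays, so they are not independent.

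The array carried 73 probes for the members, of which 43 passed the filter, and 6 genes had more than 1 of these. Among all 13258 probes that passed, 25.5% were lower and 4.01% higher, and the p-values of single probes are adjusted over these. For Hnrnpa3 the brightest probe gave -2.295, a dimmer probe -1.49 (-1.86 in pool 2 and -1.12 in pool 3; adjusted p = 3.00e-19) and a further probe -0.33 (-0.38 and -0.28; adjusted p = 0.104), so 2 of 3 were lower. For Hnrnpab all 3 were lower, at -2.15, -0.78 and -0.47. For Hnrnpk the brightest probe was lower at -0.52 and the other gave 0.08 (-0.09 in pool 2 and 0.24 in pool 3; adjusted p = 0.707). With the mean of both probes, Hnrnpk had a log2 ratio of -0.22 and did not pass (adjusted p = 0.294).

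The brightest probe thus gave the lowest ratio in each of these 3 genes. The same held for Srsf2, whose probes gave -0.71 and -0.44, both lower, and for Snrpd3, whose brightest probe gave -0.74. The other Snrpd3 probe was not well above background for FR on any of the 4 arrays, so it gives only a bound: at least 1.27-fold lower, from the control mean against, on each array, the higher of the FR signal and the lowest signal well above background (adjusted p = 0.0107). The probes of Srsf4 gave -0.20 and 0.05, and neither passed. No gene had probes called in opposite directions. Probes that fell short of the filter have no part in this comparison. They include the dimmer Hnrnpf probe near 0 and a dimmer Snrpb2 probe (0.09, -0.01 and -0.06 in pools 1, 2 and 3). Which transcripts each probe reaches was not tested, so differences between transcripts and between probes cannot be told apart.

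**Figure D4:**
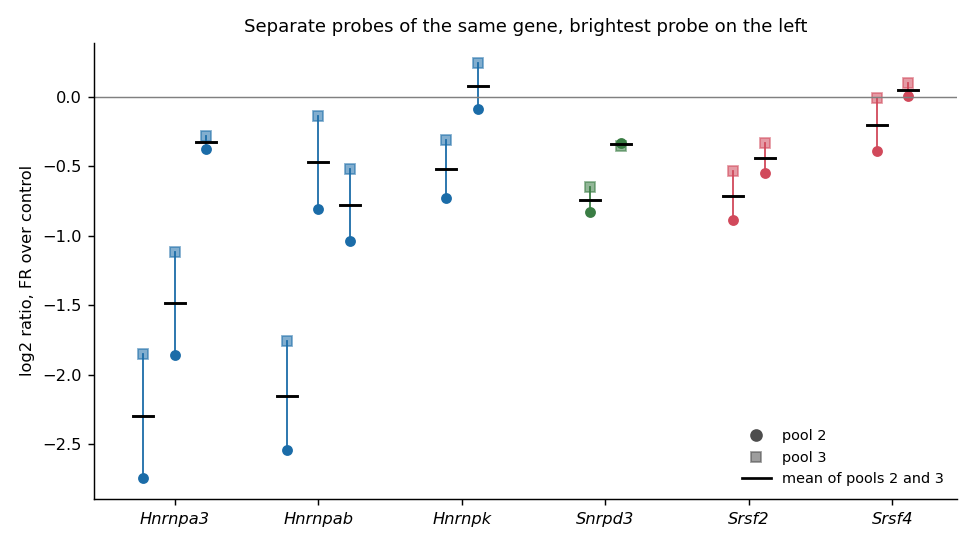
Log2 ratio of FR over control (y axis) for each probe above background of the 6 genes with several such probes; circles are pool 2, squares pool 3, black bars their mean, and the brightest probe of a gene stands on the left. The spread between probes is widest for Hnrnpa3, from -2.295 to -0.33.

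The other genes of the spliceosome gave a context for these families. From lists of 162 such genes, 155 were on the array and 108 were tested, with a median log2 ratio of -0.21. Of these 108, 45 were lower and 2 higher, where 24.5% of all tested features were lower and 3.77% higher. With FR and control both above background on all 4 arrays, 13 of 53 were lower, where 18.5% of features were. Under the stricter prior 24 of 108 were lower and 1 higher, where 15.5% of all features were lower and 1.55% higher. Without the replicate block 13 were lower and 1 higher, where 8.6% of all features were lower and 1.02% higher. The counts of single lists below come from the main test, with its shares of 24.5% lower and 3.77% higher. Of the context genes named here, FR RNA was above background on all 4 arrays for Lsm7, Dhx8, Celf1 and Sart3, and the others entered the test through control RNA alone. Among the 9 tested splicing helicases, 5 were lower and 1 was higher. Ddx17, a DEAD-box helicase that works with hnRNPs in alternative splicing, had log2 ratios of -1.71, -2.42 and -1.65 in pools 1, 2 and 3 (mean -2.04 ± 0.54, SD, n = 2; adjusted p = 4.57e-37). Dhx8, which releases spliced mRNA from the spliceosome, had log2 ratios of 0.48, 0.51 and 0.41 (mean 0.46 ± 0.07, SD, n = 2; adjusted p = 0.0118). These lie at opposite ends of the helicases.

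Of 18 snRNP-specific and tri-snRNP proteins, 9 were lower and 0 higher. Their lowest was Snrnp200 at -1.03 ± 0.35 (SD, n = 2; adjusted p = 2.01e-11), the helicase that unwinds U4 from U6 RNA. Ppih, a cyclophilin of the tri-snRNP, had a mean of -0.26 and FR above background on none of the 4 arrays, so its bound was at least 1.16-fold lower (adjusted p = 0.0413). Of 5 LSm proteins, which form rings on U6 and other small RNAs, 3 were lower, among them Lsm10 (-0.77) and Lsm7 (-0.51). Of 11 snRNP assembly factors, 1 was lower: Sart3, which recycles U4 and U6 snRNPs, at -1.01 ± 0.38 (SD, n = 2; adjusted p = 2.82e-09). Of 6 genes for U2AF and branch site recognition, 2 were lower: Phf5a, a further SF3b subunit, at -0.65, and Puf60, a relative of the large U2AF subunit, at -0.63.

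Of 18 SR-related proteins, SR kinases and import factors, 7 were lower and 0 higher. Clk1, a kinase that phosphorylates SR proteins, had log2 ratios of -1.64, -1.73 and -0.74 in pools 1, 2 and 3 (mean -1.24 ± 0.70, SD, n = 2; adjusted p = 1.72e-14), and Tra2b, an SR-like activator, had a mean of -0.46. Of 11 Prp19 complex and catalytic step factors, 4 were lower, including Cdc5l (-1.13) and Plrg1 (-0.49), both core proteins of that complex. Of 29 other RNA-binding regulators of splicing, 14 were lower and 1 higher. Nono, a paraspeckle protein, was the lowest at -1.74 ± 0.36 (SD, n = 2; adjusted p = 3.60e-26), and Celf1, which binds GU-rich RNA, was higher at 0.64 ± 0.22 (SD, n = 2; adjusted p = 1.41e-05). The exon junction complex had 1 tested gene, which did not pass.

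**Figure D5:**
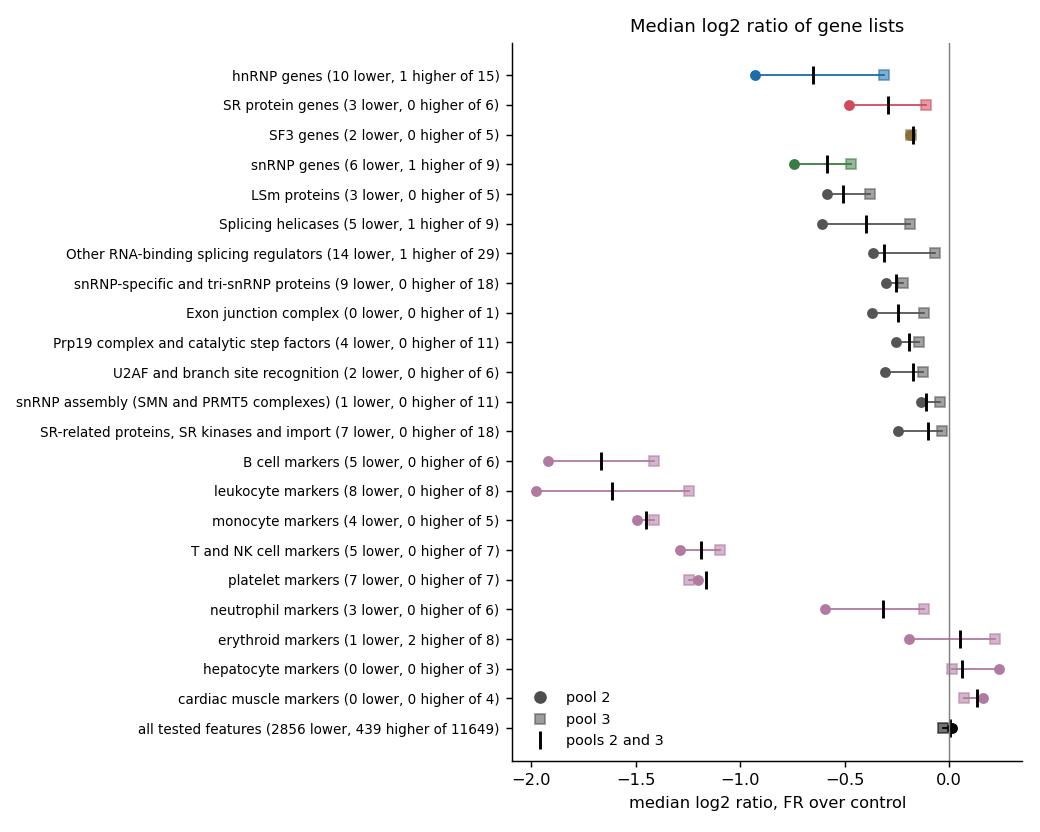
Median log2 ratio of FR over control (x axis) of the 4 families, of the other spliceosome lists and of the cell type marker lists, with pool 2 as circles, pool 3 as squares and both pools as bars; labels give the number called lower and higher of those tested. The hnRNP and snRNP medians (-0.65 and -0.58) lie left of the other spliceosome lists and right of the leukocyte (-1.61), B cell (-1.67), monocyte (-1.45), T and NK cell (-1.19) and platelet (-1.17) marker lists.

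The 12 members that were not tested were Hnrnpdl, Hnrnph3, Hnrnpll, Srsf1, Srsf3, Srsf7, Srsf12, Sf3a1, Sf3b1, Sf3b4, Snrpd1 and Snrpn. For 6 of them control RNA was above background on 3 of the 4 arrays, just short of the filter, and for 6 FR RNA was above background on none. Srsf12 was above background for neither diet on any of the 4 arrays. No ratio is given for these genes, since neither diet was above background on all 4 arrays.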

How the data were processed

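Blood RNA pools were amplified, dye-labelled and hybridised to 6 two-colour Agilent arrays, per the labels' protocols. The scanner files as deposited give linear intensity values for each spot and dye, and the submitters' processing notes name Agilent Feature Extraction 11.0.1.1. The authors also deposited a series table in log10 units. Compared with the scanner values, it proved to be log10 of Cy5 over Cy3 processed signal on each array, without centring or turning. Its medians for arrays with FR in Cy5 were -0.00938, 0.0441 and 0.0520 in pools 1 to 3, and for arrays with FR in Cy3 -0.0277, 0.00763 and -0.0221. Direction came from the dyes in the labels.

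With limma 3.58.1 in R 4.3.3, median signals were background-corrected by normexp (offset 50) against the background median and loess-normalized within arrays, control spots at weight 0. Outlier spots were left out, spots of a probe averaged, ratios turned to FR over control, and the 2 arrays of a pool averaged. Signals given are log2 channel values after Aquantile normalization. A probe entered where either diet was well above background on each of the 4 arrays of the replicate pools. The brightest probe stood for each gene (other probes by ID). Log2 ratios were tested against 0 with lmFit and eBayes (trend), two-sided, and Benjamini-Hochberg adjustment over 11649 features. Animals were pooled, so p-values take no account of the spread between single animals. They rest on a spread between pools estimated from all features as a trend over mean signal, and the number of arrays limits the precision.

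Genes were named from array accessions through RefSeq symbols (GRCm38.p6, names and promoters only), giving 23374 of 41174 probes and 16535 symbols. The members and all lists were chosen with earlier results of these data known. Named in each family were the 3 lowest and 2 highest tested members, the 3 genes with the widest range between probes, genes with only a bound, and the lowest and highest called gene of each context list. The diets of a pool come from different animals but share arrays. Over features, the deviations of pools 2 and 3 from the diet mean correlated at 0.678 between FR and control of the same pool. The ratio within an array blocks by pool. In all, 15 alternatives were tried.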

Additional observations from a re-analysis of the deposited data

How the results depend on the processing

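With 2 pools, p-values rest on a spread estimated from all features as a trend over mean signal, and signals near background limit the dim genes in each channel. No count or median reversed its direction. Without replicate 2 or 3 (pool 1 in its place), 18 to 28 members were lower, where 20.9% and 36.2% of all features were, and 1 to 3 higher, where 4.19% and 15% were. The SF3 median was then -0.26 to -0.25 and the SR protein median -0.28 to -0.46. With no replicate block, 8 members were lower and 0 higher (1002 and 119 of all features), against 21 and 2. Requiring both diets above background gave 10 lower, 1 higher and an SF3 median of -0.055. Taking the prior degrees of freedom from 3 pools, 15 members were lower and 0 higher (1803 features lower and 180 higher), and with no background subtraction 1 was higher, where 3.06% of features were (SF3 median -0.13). With median centring in place of loess 0 were higher, where 1.6% of features were, with medians of -0.54 for SR protein, -0.40 for SF3 and -0.83 for snRNP genes, where the median of all features moved to -0.19. With slide as a random block over 6 arrays (consensus correlation -0.233), 6 members were higher, where 30.8% of all features were, and the SF3 median was -0.20. FR in Cy5 alone and in Cy3 alone each gave 1 higher, where 8.79% and 3.44% of features were, with SF3 medians of -0.093 and -0.249 and SR protein medians of -0.14 and -0.45. Agilent's processed signals and the series table, both median-centred, gave medians of -1.62 (hnRNP), -0.76 (SR protein), -0.38 (SF3) and -1.85 (snRNP). The SF3 median was -0.27 with no filter on dim probes and -0.23 with all 3 pools as replicates. The cause was not tested for these shifts. Of all calls over the table, 86.7% were lower, against 74.9% with both diets above background, 70.7% without replicate 3, 75.7% with FR in Cy5 alone and 55.7% with the slide block. For the 21 named members, 275 of 306 values stayed on the same side of the threshold, and 21 lost and 10 gained a call. No called value reversed, but 6 members that had not passed had the other sign in 1 or more settings: Hnrnpl, Srsf10, Srsf6 and Sf3a2 with median centring, Snrpa1 with FR in Cy3 alone, and Sf3b2 without replicate 2 and with FR in Cy5 alone. The series table repeats the processed signals, so these settings are not independent.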
